A study of Rattus norvegicus with 38 samples.

Results

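The comparison described here set neuron clusters of late-stage SHRSP rats against neuron clusters of early-stage SHRSP rats. SHRSP rats, an inbred substrain of spontaneously hypertensive rats, are prone to stroke. Its 10 neuron libraries, out of 38 libraries in the series, were taken by their labelled material, strain and stage. The late group held 5 libraries of animals aged 32 to 34 weeks, numbered 378, 379, 381, 382 and 384. The early group held 5 libraries of animals aged 24 to 25 weeks, numbered 374, 377, 380, 383 and 386. All 10 pieces of material were cut from frontal cortex by laser microdissection, and each animal also gave a library of cortical blood vessels. Wistar rats, the normotensive comparison strain of the series, gave 4 late neuron libraries (350, 351, 353 and 354) and 5 early ones (340, 343, 346, 349 and 368) at the same ages. The labels name no drug, transgene or mutation in any group. Sex, blood pressure, the number of cells cut and the picking of clusters are not stated in the labels. The series title concerns stage-dependent effects of hypertension in frontal brain, and stage is labelled by the animal's age.

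Cortical neuron clusters are groups of nerve cell bodies that a laser cuts out of a thin section, together with whatever glial processes and capillaries lie between them. Blood pressure in SHRSP rats climbs with age, small arteries of the brain thicken, and cortical tissue can suffer from impaired blood supply. The libraries were made from the 3' end of messenger RNA, so a count stands for a transcript end and does not grow with transcript length. Genes are given as Ensembl IDs. The count table pairs none of them with a name, and 0 of its 32883 IDs matched the reference table used here. No name, function, cell type marker or sequence is therefore given for any ID, and the labelled cell type could not be checked against markers.

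The 10 SHRSP neuron libraries were of like depth apart from 1. Totals ran from 2560625 to 3732940 counts in late libraries (median 3265769) and from 1198386 to 3772677 in early ones (median 2850636), with animal 374 the shallowest. IDs with at least 1 count numbered 13452 to 14305 in late and 11987 to 13975 in early libraries. Thinned to 1198386 counts each, they numbered 12790 ± 226 in late and 12648 ± 382 in early libraries (SD, n = 5 each), a difference within the spread (two-sided exact permutation test, p = 0.532). IDs with at least 5 counts at that depth were fewer late, 9452 ± 120 against 9638 ± 106 early (exact permutation test, unadjusted p = 0.0317). The direction of the difference thus depends on the minimum. The most abundant ID, which took a mean of 23.1% of late and 9.13% of early counts, was not taken out here. The 20 pairs of libraries within a group differed by 4.88 to 54.0 times the chi-square of counting noise per degree of freedom, so no pair looked like repeat deposits of the same library. Replicates are separately numbered animals, and p-values rest on the spread between animals, of which cutting and library making form an unseparated part.

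A large part of each library lay on 1 ID, ENSRNOG00000043866, and that part ran with stage in all animals but 1. It took 20.4%, 26.7%, 22.3%, 25.0% and 21.3% of the counts in late animals 378, 379, 381, 382 and 384. In early animals 374, 377, 380 and 386 it took 6.74%, 6.14%, 5.37% and 5.63%, and in early animal 383 it took 21.8%. The value of animal 383 lies inside the late range, while the other early animals lie below every late one. The widest exact binomial 95% interval, for animal 379, was 26.7% to 26.8% and covers counting error only. The late mean was 14.0 percentage points above the early mean (two-sided exact permutation test, p = 0.0238; adjusted p = 0.0952 over 4 measures of the libraries). Without animal 383, the late mean of 23.1% ± 2.63 (SD, n = 5) stood against 5.97% ± 0.608 (SD, n = 4) in early animals.

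**Figure D1:**
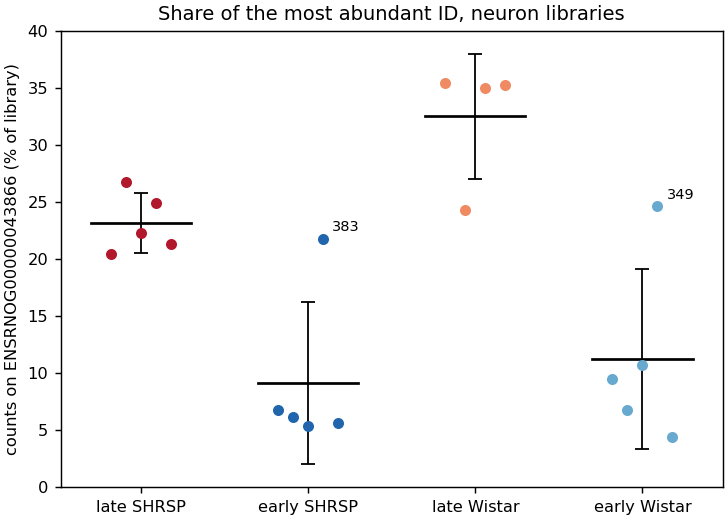
Percent of each neuron library's counts on ENSRNOG00000043866, with late left of early in SHRSP and then in Wistar; points are animals, horizontal lines group means and error bars 1 SD. Early SHRSP animal 383, at 21.8%, sits among the late SHRSP animals, which run from 20.4% to 26.7%, and early Wistar animal 349, at 24.6%, sits likewise apart from its group.

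In edgeR's quasi-likelihood test, ENSRNOG00000043866 was higher late (log2 fold 1.55, SE 0.46, adjusted p = 0.0397), and this call was fragile. It was lost in 11 of 25 alternatives, with adjusted p from 1.11e-05 to 0.999 over all of them. Not among them are the fits without this ID or with its share as a covariate, and DESeq2, which returned no adjusted p for it. Leaving out any 1 of 9 animals ended it, namely Wistar animal 350 (adjusted p = 0.0512), late animals 378 (0.0528), 379 (0.108), 382 (0.0601) and 384 (0.0652), and early animals 374 (0.0896), 377 (0.0947), 380 (0.112) and 386 (0.0945). In the vessel libraries of the same animals it took 9.69%, 18.5%, 20.8%, 22.9% and 31.0% of the counts late (378, 379, 381, 382 and 384). Early vessels had 7.54%, 7.09%, 6.45% and 7.21% in animals 374, 377, 380 and 386, and 17.7% in animal 383. Animal 383 thus stood above the other early animals in both of its libraries. In vessels the stage difference of this ID did not pass (log2 fold 1.24, SE 0.50, edgeR adjusted p = 0.247).

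Late SHRSP neurons differed from early ones in 959 of 10833 IDs tested (8.85%), and the higher calls outnumbered the lower ones. Higher in late animals were 663 IDs (6.12%), with a median log2 fold of 1.34 and a range of 0.43 to 3.76. Lower in late animals were 296 IDs (2.73%), with a median log2 fold of -0.86 and a range of -0.44 to -4.29. The median over all IDs tested was -0.08, and 44.3% of them had a fold above 0. With DESeq2-type scaling that median was 0.00. Of the higher calls, 477 (71.9%) reached 2-fold and 110 reached 4-fold. Of the lower calls, 97 (32.8%) reached 2-fold and 12 reached 4-fold. The median SD per ID between animals was 0.376 late and 0.377 early, or 0.336 early without animal 383, on the log2(CPM + 1) scale. CPM is a normalised count, scaled by an adjusted library total, and need not add up alike in all libraries.

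The calls lay mostly on abundant IDs. The median level over the 10 libraries was 39.6 CPM for higher calls and 75.2 CPM for lower calls, against 20.9 CPM for all IDs tested. With the tested IDs split by level into 5 bins of like size, 2.12% of the lowest bin (up to 6.17 CPM) were called higher, and 9.46% of the highest bin (from 72.8 CPM). Lower calls made up 0.369% of the lowest bin and 6.97% of the highest. Low levels carry more counting error, so fewer calls there say little about the size of the differences. Without ENSRNOG00000043866, the higher calls together took 174286 CPM in late and 71673 CPM in early libraries on average. The lower calls took 29915 CPM late and 52837 CPM early.

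Beside ENSRNOG00000043866, only 2 higher calls had a mean of at least 1000 CPM, of 67 IDs tested at that level, and they carried 104518 CPM of the late and 37218 CPM of the early sum. They were ENSRNOG00000030478 and ENSRNOG00000062127, named after their values were seen. ENSRNOG00000030478 measured 79885, 133096, 54172, 91662 and 91548 CPM in late animals 378, 379, 381, 382 and 384. It measured 26487, 25818, 24134 and 26158 CPM in early animals 374, 377, 380 and 386, and 57918 CPM in early animal 383. Animal 383 lay above late animal 381, the lowest of its group, and the other early animals lay below every late one. The log2 fold was 1.49 (SE 0.33, edgeR adjusted p = 0.0108). With any 1 animal left out this call held, at edgeR adjusted p up to 0.0488. With the share of ENSRNOG00000043866 as a covariate it was lost, at a log2 fold of 0.37. Against animal 383 alone the log2 fold was 0.63. ENSRNOG00000062127 measured 12398, 19280, 5500, 11716 and 23332 CPM late and 4733, 6072, 3551, 5925 and 5292 CPM early, in the same order of animals with 383 the fourth of the early ones. Here animal 383 lay within the range of the other early animals, and late animal 381 lay within it too. The log2 fold was 1.5 (SE 0.36, edgeR adjusted p = 0.0164), and this call was lost without late animal 379 (adjusted p = 0.0593) and without early animal 380 (0.0590), over its alternatives 0.000315 to 1.

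**Figure D2:**
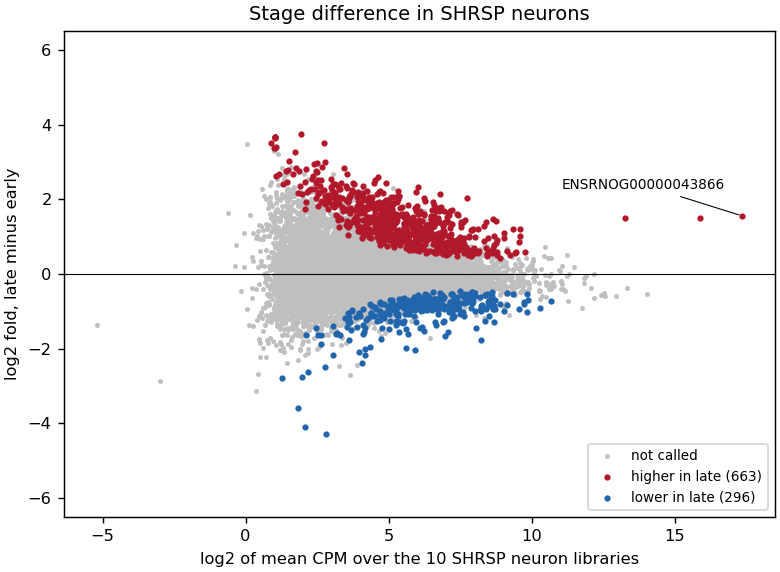
Late minus early log2 fold of each of the 10833 IDs tested in SHRSP neurons (y axis) against the log2 of its mean CPM over the 10 libraries (x axis); coloured points are the 663 higher and 296 lower calls at an adjusted p under 0.05. Higher calls reach a log2 fold of 3.76, and calls of both directions thin out towards low levels.

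Not every call separated the stages library by library. In 415 of the 663 higher calls every late library lay above every early one, and in 248 the groups overlapped. In 137 of the 296 lower calls every late library lay below every early one, and in 159 they overlapped. Over all IDs tested, 712 (6.57%) had every late library above and 388 (3.58%) every late library below the early ones. Without animal 383 these were 1258 (11.6%) and 1001 (9.24%), with 4 early libraries in place of 5. The count of calls itself moved with single animals. It was 180 without late animal 379, 214 without early animal 380, 366 without 386, 423 without 377, 426 without 374, 432 without 384 and 613 without 378. It was 1441 without early animal 383 and 1951 without Wistar animal 343, which enters only through the spread, the filter and the scaling.

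The tool and the filter moved the count as well, and the scaling moved the split between higher and lower calls. DESeq2 called 1480 IDs, 1138 higher and 342 lower. In limma voom 646 passed, 480 higher and 166 lower. Without the filter on low counts, edgeR called 687, of which 538 were higher and 149 lower. With DESeq2-type scaling inside edgeR, 980 passed, of which 796 (81.2%) were higher and 184 lower, against 69.1% higher with the scaling used here. With the 10 SHRSP libraries fitted alone, 2033 passed. With the share of ENSRNOG00000043866 as a covariate in the fit, edgeR called 0 IDs, and 403 had an unadjusted p under 0.05. Stage and that share coincided in 9 of the 10 libraries, and among those 9 they cannot be told apart. Animal 383, early with a share of 21.8%, is the exception. It had the highest early SHRSP levels of ENSRNOG00000003453 (58.5 CPM) and ENSRNOG00000024923 (254 CPM), both lower late. Of 2633 IDs called without animal 383, it was nearer to the late mean in 1658 and to the early mean in 975. Whether these levels go with stage or with the share was not tested.

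The 2 higher IDs with the smallest p were ENSRNOG00000028362 and ENSRNOG00000030840. ENSRNOG00000028362 measured 126, 191, 53.9, 96.8 and 136 CPM in late animals 378, 379, 381, 382 and 384. It measured 21.4, 43.7, 22.0, 33.3 and 25.4 CPM in early animals 374, 377, 380, 383 and 386. Every late library exceeded every early one, and late animal 381 came closest to the early range. The log2 fold was 2.03 (SE 0.31, edgeR adjusted p = 0.00407). ENSRNOG00000030840 measured 162, 249, 106, 137 and 168 CPM late and 34.2, 54.3, 30.7, 71.2 and 47.6 CPM early, in the same order of animals. The groups did not overlap, animal 383 was the highest of the early libraries, and the log2 fold was 1.77 (SE 0.28, edgeR adjusted p = 0.00407).

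The 2 lower IDs with the smallest p were ENSRNOG00000003453 and ENSRNOG00000024923. ENSRNOG00000003453 measured 15.7, 9.35, 11.6, 14.5 and 10.4 CPM in late animals and 31.4, 42.2, 31.6, 58.5 and 43.0 CPM in early ones, in the same order. The groups did not overlap, and animal 383 was the early library farthest from the late ones. The log2 fold was -1.74 (SE 0.29, edgeR adjusted p = 0.00407). ENSRNOG00000024923 measured 55.8, 52.3, 74.9, 92.8 and 87.5 CPM late and 92.7, 164, 163, 254 and 197 CPM early. Its groups met at late animal 382 and early animal 374, animal 383 was again highest, and the log2 fold was -1.27 (SE 0.22, edgeR adjusted p = 0.00407). With any 1 of the 19 animals left out, all 4 IDs still passed, at adjusted p up to 0.0237. With the share of ENSRNOG00000043866 as a covariate none of the 4 passed: adjusted p was 1 for both higher IDs (over their alternatives down to 5.44e-07 and 1.59e-06), 0.11 for ENSRNOG00000003453 (from 1.14e-05) and 0.373 for ENSRNOG00000024923 (from 4.31e-05). In that fit the log2 folds kept their signs, at 1.53 for ENSRNOG00000028362, 1.19 for ENSRNOG00000030840, -1.95 for ENSRNOG00000003453 and -1.26 for ENSRNOG00000024923.

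**Figure D3:**
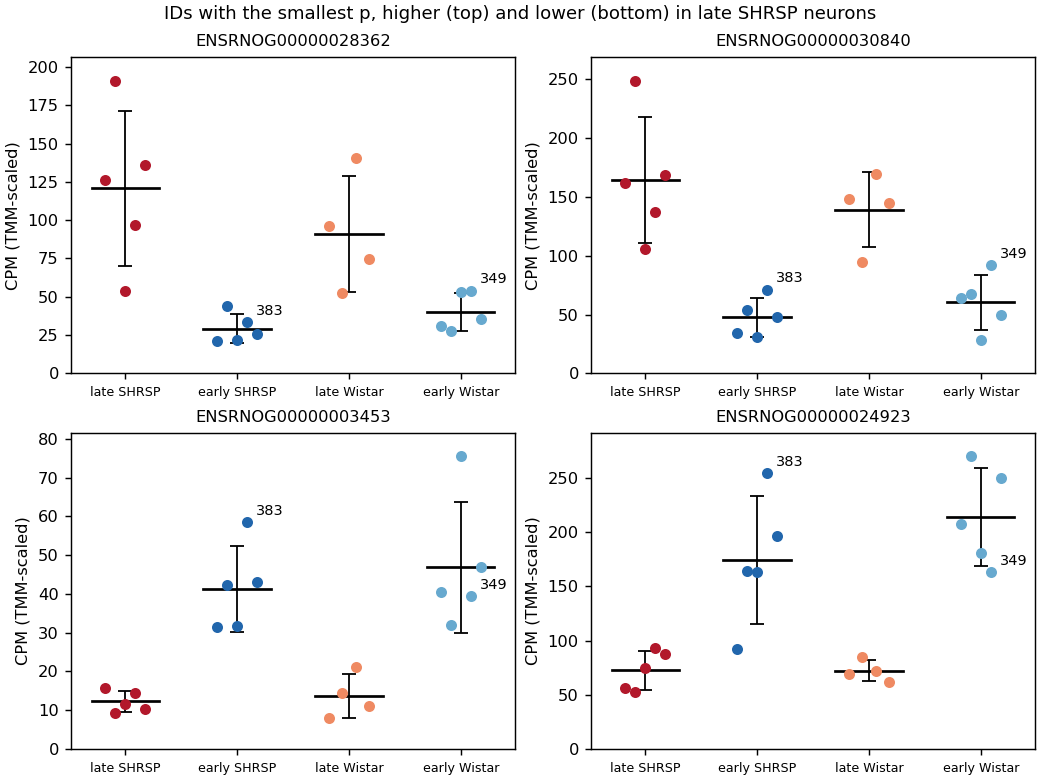
CPM of the 2 higher and the 2 lower IDs with the smallest p in their direction, in each neuron library. Late stands left of early in SHRSP and then in Wistar. Points are animals, horizontal lines group means and error bars 1 SD. Early animal 383 lies within the other early animals for the first higher ID (33.3 CPM), between them and the late animals for the second (71.2 CPM), and is the highest early SHRSP library for both lower IDs (58.5 and 254 CPM).

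Each library was then placed on the axis between the stages by IDs that it had not helped to choose. For each library left out, IDs were called in the other 9 SHRSP libraries, and its level of each ID was set on a scale where 0 is the mean of those early libraries and 1 the mean of those late ones. The median position over IDs was 0.87, 1.43, 0.49, 0.81 and 1.10 for late animals 378, 379, 381, 382 and 384. It was -0.06, 0.05, -0.26 and 0.03 for early animals 374, 377, 380 and 386, and 0.62 for early animal 383. All late animals lay above those 4 early ones, and the position of animal 383 was above that of late animal 381. The calls behind these positions numbered 1192 to 2633 per 9 libraries. The early mean behind every position but that of animal 383 includes animal 383. The positions of 383 and 381 thus rest on different IDs and means. On common scales given below, their order was reversed. By the Wistar calls animal 383 stood at 0.49 and animal 381 at 0.58. On the first principal component they stood at 0.76 and 5.41.

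Late animals were not alike along this axis. Animal 379 was nearer to the late than to the early mean in 97.3% of the IDs that placed it, animal 384 in 88.5%, animal 378 in 85.7% and animal 382 in 79.7%. Animal 381 was nearer to the late mean in 48.6%, with positions of 0.50 over higher and 0.45 over lower IDs. For animals 378 and 382 the higher IDs placed the library further along (0.93 and 0.88) than the lower IDs did (0.64 and 0.56). A principal component analysis of the 10 libraries gave the late animals the same order, with 46.4% of the variance on the first component. On it the late animals lay at 29.8, 67.6, 5.41, 24.8 and 51.9, early animals 374, 377, 380 and 386 at -58.3, -35.4, -50.8 and -35.8, and animal 383 at 0.76.

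Animal 383 lay with the late animals in some IDs and with the other early animals in others. Without it, edgeR on the other 9 SHRSP libraries called 2633 of 10077 IDs (26.1%), 1640 higher (16.3%) and 993 lower (9.85%). Of these, animal 383 lay within the late range alone in 1226 (46.6%), between the ranges in 584 (22.2%) and within the early range alone in 525 (19.9%). In 147 it lay in both ranges, in 107 beyond the late range and in 44 beyond the early range. These IDs were chosen for the gap between the late and the other early animals, so the places are partly built in. No share over all IDs tested was taken beside them. The 1658 IDs in which it was nearer to the late mean and the 975 in which it was nearer to the early mean had like folds (median absolute log2 fold 1.07 and 1.06) and like levels (median 34.8 and 29.4 CPM). Both ENSRNOG00000003453 and ENSRNOG00000024923 were among the 44, at positions of -0.48 and -0.82, while ENSRNOG00000043866 stood at 0.94.

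Set against animal 383 alone, the 5 late animals differed in 3 of 12408 IDs, all lower late, and 357 had an unadjusted p under 0.05. This fit takes the spread of the lone library to be that of the other groups. The 3 were ENSRNOG00000024923 (log2 fold -1.81, SE 0.31, edgeR adjusted p = 0.0219), ENSRNOG00000003453 (log2 fold -2.24, SE 0.41, adjusted p = 0.0337) and ENSRNOG00000052017, which is named after its values were seen (log2 fold -4.33, SE 0.66, adjusted p = 0.00796). Against all early animals the log2 fold of ENSRNOG00000052017 was -2.63 (SE 0.65, adjusted p = 0.0170). That call was lost without animal 383 (log2 fold -1.37, adjusted p = 0.105), without late animal 379 (adjusted p = 0.0610) and in limma voom (0.0901), over its alternatives 0.00332 to 0.241. Neither ENSRNOG00000028362 (log2 fold 1.85, SE 0.59) nor ENSRNOG00000030840 (1.20, SE 0.48) passed against animal 383 (edgeR adjusted p = 0.999 for both). Between animal 383 and the other early animals edgeR called 0 IDs, with 732 at an unadjusted p under 0.05. A contrast with 1 library on a side has little power, and its count says little of how alike the libraries are. Over the 2633 IDs, late minus 383 ran in the late direction in 84.0%, with a median of 0.43 on the log2 scale. For 383 minus the other early animals it was 91.9%, with a median of 0.63. These IDs were chosen for the gap between the late and the other early animals, so a place between them is partly built in. No share over all IDs was taken beside these.

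In Wistar neurons, from other animals, the 5 IDs passed in the same directions. The log2 fold of ENSRNOG00000028362 in Wistar was 1.17 (SE 0.32, edgeR adjusted p = 0.0244), against 2.03 in SHRSP, and that of ENSRNOG00000030840 was 1.20 (SE 0.29, adjusted p = 0.0140). It was -1.78 for ENSRNOG00000003453 (SE 0.31, adjusted p = 0.00348) and -1.57 for ENSRNOG00000024923 (SE 0.24, adjusted p = 0.00181), and 1.94 for ENSRNOG00000043866 (SE 0.48, adjusted p = 0.0185). In Wistar, 1009 IDs were called (9.31%), 633 higher (5.84%) and 376 lower (3.47%). The difference between the strains' stage folds was tested over all 10833 IDs, and for ENSRNOG00000028362 its unadjusted p was 0.0629. It passed for 0 IDs in edgeR (smallest adjusted p = 0.99997, 254 at an unadjusted p under 0.05), and DESeq2 and limma voom also called 0. Nothing in the stage difference was thus shown to be particular to SHRSP, which does not show that the strains respond alike.

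The strains share no library, and fitted apart they were set side by side. In 9618 IDs tested in both, 2008 were called in SHRSP and 83 in Wistar, and 76 were shared in the same direction, 3.78% of the SHRSP and 91.6% of the Wistar calls. The 2033 SHRSP calls were 20.5% of 9893 IDs tested, 1286 of them higher (13%) and 747 lower (7.55%). The 83 Wistar calls were 0.835% of 9941 IDs, 64 of them higher (0.644%) and 19 lower (0.191%). Of the 2008, 1961 (97.7%) had the same sign in Wistar, as did 77.6% of all IDs tested in both. SHRSP higher calls had a median log2 fold of 1.20 in SHRSP and 1.07 in Wistar, and lower calls of -0.79 and -0.59, against a Wistar median of -0.04 over all IDs. Across the 9618 IDs the folds correlated at Pearson's r = 0.779, a description over IDs that share libraries and are no replicates.

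**Figure D4:**
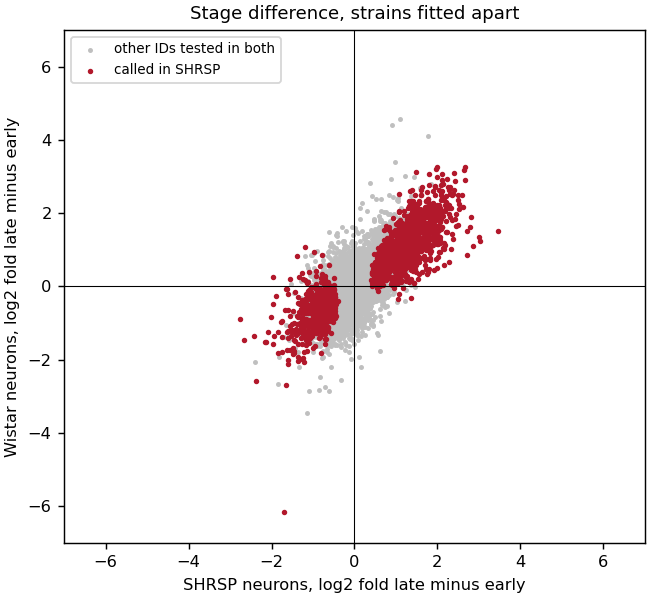
Late minus early log2 fold per ID in SHRSP neurons (x axis) and Wistar neurons (y axis), each strain fitted apart; red points are the SHRSP calls and grey points the other IDs tested in both. Of 2008 SHRSP calls, 1961 lie on the same side of 0 in both strains.

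Placed by the 2033 SHRSP calls, which no Wistar library helped to choose, late Wistar animals 350, 351, 353 and 354 had median positions of 1.07, 0.65, 1.23 and 1.05. Early Wistar animals 340, 343, 346 and 368 had 0.13, -0.25, 0.08 and -0.06, and early Wistar animal 349 had 0.65. Animal 349 also carried 24.6% of its counts on ENSRNOG00000043866, where the other early Wistar animals had 4.34% to 10.7%. It was nearer to the late than to the early SHRSP mean in 66.3% of the IDs, as animal 383 was in 63.0% of those that placed it. In the other direction, the 83 Wistar calls gave late SHRSP animals 0.82, 1.21, 0.58, 0.81 and 0.95. They gave early animals 374, 377, 380 and 386 -0.03, -0.04, -0.16 and -0.04, and animal 383 0.49.

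**Figure D5:**
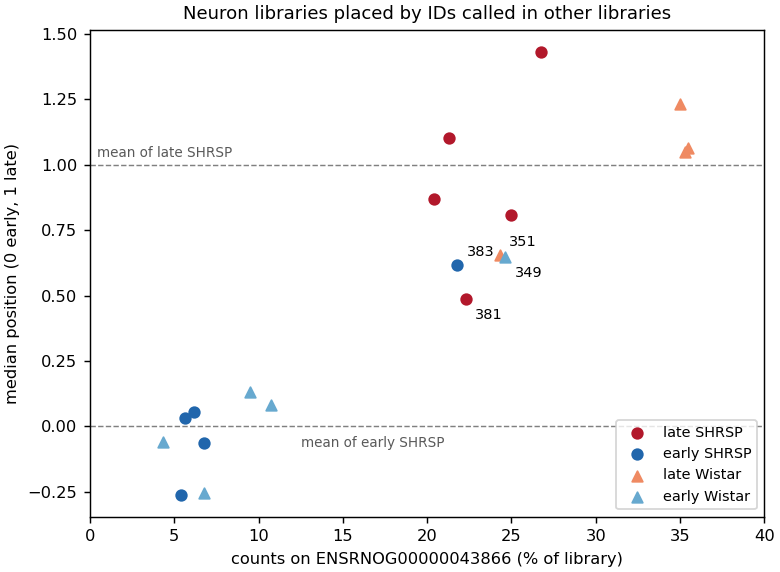
Median position of each neuron library between the early SHRSP mean (0) and the late SHRSP mean (1), by IDs called without that library, against the percent of its counts on ENSRNOG00000043866; circles are SHRSP and triangles Wistar animals. Early animals 383 and 349, at 0.62 and 0.65, lie with late animals 381 and 351 between the low early animals and the other late ones. Each SHRSP position rests on its own IDs and means.

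The vessel libraries of the same 10 SHRSP animals gave 1 call in 11011 IDs (0.00908%), with 1527 at an unadjusted p under 0.05. The call was ENSRNOG00000015550, lower late (log2 fold -1.40, SE 0.25, edgeR adjusted p = 0.00026), named after its values were seen. It did not pass in 6 of 14 alternatives, over which the adjusted p ran from 0.000603 to 0.288: without the filter (0.117), in DESeq2 (0.125), and without early animals 374 (0.0606), 377 (0.288) or 383 (0.0522) or late animal 384 (0.145). It measured 2385, 2514, 1633, 2462 and 1198 CPM in late vessels (378, 379, 381, 382 and 384) and 9039, 3153, 7090, 3931 and 3637 CPM in early vessels (374, 377, 380, 383 and 386). In neurons it stood at 14.8, 29.0, 10.2, 28.6 and 22.6 CPM late and 46.3, 57.5, 46.1, 22.2 and 52.8 CPM early, and did not pass (log2 fold -1.10, SE 0.39, adjusted p = 0.0721). In vessels the groups did not overlap, and in neurons they met through animal 383. Early vessel libraries were thin except for that animal, with 4104 to 6549 IDs detected in animals 374, 377, 380 and 386, 10207 in animal 383 and 9875 to 11685 in late animals. Without animal 383 the vessel count was 1310, of which 1275 were higher, and DESeq2 and limma voom gave 358 and 1252 calls with it. In limma voom the median log2 fold of all vessel IDs was 2.17, against 0.45 in edgeR, so the vessel values depend on the tool.

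None of the 4 IDs named in neurons passed in vessels, and their directions there were mixed. ENSRNOG00000024923 was lower in mean there too, at 102.9 to 354 CPM late and 162 to 2312 CPM early, with overlap (log2 fold -1.52, SE 0.50, edgeR adjusted p = 0.188). ENSRNOG00000003453 stood the other way round, at 40.9, 6.81, 27.2, 16.5 and 6.31 CPM late, while early vessels held 0 CPM in 4 animals, 383 among them, and 0.62 CPM in animal 377 (edgeR adjusted p = 0.188). The log2 fold of ENSRNOG00000028362 was -0.32 (SE 1.56), and ENSRNOG00000030840 stood at 0.223 to 67.6 CPM late and 0 to 14.9 CPM early (edgeR adjusted p = 0.956 and 0.436). Of the 932 neuron calls that were tested in vessels, 748 (80.3%) had the same sign there, as did 61.4% of all 10140 IDs tested in both. Of all these IDs 59.0% had a vessel fold above 0, so higher and lower calls differ in what they start from: 558 of 641 higher calls (87.1%) were above 0 in vessels, and 190 of 291 lower calls (65.3%) below 0, against 41.0% of all. The median log2 fold in vessels was 1.76 over higher and -0.47 over lower neuron calls, against 0.42 over all IDs tested in both. The materials come from the same animals, so these shares are no independent check.

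The share of vessel-enriched IDs in the neuron material moved with stage. With no names to pick markers by, 102 vessel-enriched and 70 neuron-enriched IDs were chosen by comparing the materials in Wistar animals alone, after the table proved to hold no names. Outside ENSRNOG00000043866, vessel-enriched IDs took 3.03%, 3.34%, 3.68%, 3.65% and 3.11% of the counts in late SHRSP neurons (378, 379, 381, 382 and 384). They took 4.63%, 3.89%, 4.97%, 4.44% and 4.81% in early ones (374, 377, 380, 383 and 386). The groups did not overlap, and animal 383 lay with the early animals. In vessels they took 7.86% to 11.3% late and 12.3% to 14.4% early. Neuron-enriched IDs took 2.18% to 2.66% in late and 2.52% to 2.95% in early SHRSP neurons, with overlap. Of 97 vessel-enriched IDs tested in the stage comparison of neurons, 1 was called higher (1.03%) and 7 lower (7.22%), against 6.12% and 2.73% over all IDs tested. Their median log2 fold was -0.38, against -0.08 over all IDs. Of 70 neuron-enriched IDs, 7 were called higher (10%) and 5 lower (7.14%), with a median of 0.03. The share called lower was thus much the same in both kinds, on few IDs, while the share called higher and the median fold differed. The part of the captured material in the stage difference was not tested, and in such bulk material fewer cells of a type and less RNA per cell cannot be told apart.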

How the data were processed

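The authors deposited whole-number counts per Ensembl ID, without normalization, in 38 columns named for the samples. Tools named in the submitters' processing notes, without their roles, are STAR 2.5.3a, HTSeq 0.6.1, FastQC 0.11.5 and DESeq2 1.18.1. RNA was isolated with PicoPure and libraries made with the QuantSeq 3' forward kit, per the labels' protocols. No source used here gives the genome build, annotation or strand setting, so overlapping genes and near-identical copies cannot be separated. No molecular identifiers were used here.

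All 19 neuron libraries were fitted in edgeR 4.0.16 (R 4.3.3) with 4 groups, the group-based filter on low counts, TMM scaling and the robust quasi-likelihood F test. The 19 vessel libraries were fitted likewise. A call is a Benjamini-Hochberg adjusted p under 0.05 over all IDs tested. A standard error (SE) is the log2 fold divided by the square root of F. CPM are counts scaled by the TMM-adjusted library total, so the CPM of different libraries need not add up to the same sum. Positions and principal components use log2 CPM with a prior count of 2. Single values per library were compared by two-sided exact permutation tests, whose smallest p with 5 against 5 is 0.00794. Enriched IDs had a log2 fold of at least 1 and an adjusted p under 0.05 between materials. The fits were also run on simulated data, with folds put into IDs drawn at random in late SHRSP libraries. No deviating library such as animal 383 was simulated, so that run says nothing of how such a library acts on the calls.

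The members and lists were chosen with earlier results of these data known. The naming rule asked for gene names, which neither the files nor the reference (GRCr8, 47357 genes) pair with the IDs. Its stated fallback was used, ENSRNOG00000043866 and the 2 IDs of smallest p in each direction, and 4 others are named as chosen after their values were seen. The 30 gene and marker lists could not be applied. Alternatives were DESeq2 1.42.0, limma 3.58.1 (voom), other scaling and filters, fewer libraries and a covariate.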

Additional observations from a re-analysis of the deposited data

Results flagged for a closer look

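Dixon's test was run 40 times, each on a single measure in a group of 4 or 5 libraries, and flags about 5% by chance. In 7 of these runs a library stood far from the rest. The runs share animals and measures, so they are not independent. Early SHRSP animal 383 stood apart in the share of ENSRNOG00000043866, at 21.8%, and in its median position by the Wistar calls, at 0.49. Early SHRSP animal 374, the shallowest library, had 11987 IDs detected, and it remained apart at equal depth. Among Wistar neurons, late animal 351 stood apart with 24.3% of counts on ENSRNOG00000043866, below the other late animals. Early Wistar animal 343 had 9501 IDs detected, or 9151 at equal depth.

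ENSRNOG00000003453 fell in late SHRSP neurons, while in vessels its late mean was 19.4 CPM above its early mean, with every late vessel library above every early one. The vessel difference did not pass (edgeR adjusted p = 0.188), and 4 of the 5 early vessel libraries held only 4104 to 6549 detected IDs. The difference between the materials was not tested, and early vessels held 1 count of this ID in all.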

How the results depend on the processing

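The SHRSP count of 959 moved by over 1.5 times with DESeq2 (1480), the 10 SHRSP libraries alone (2033), the share covariate (0), animal 383 as the only early library (3), and animals 383 and 349 both left out (1577). With single animals left out it ran from 180 to 1951. The Wistar count of 1009 became 1556 in DESeq2, 1894 without animals 383 and 349, and 83 with the 9 Wistar libraries fitted alone. With single animals left out it ran from 197 to 1847. The vessel count of 1 became 2 with DESeq2-type scaling, 0 without the filter (edgeR), 358 in DESeq2 and 1252 in limma voom, and ran from 0 to 1310. For the differences with covariate or fewer libraries the cause was not tested. The share of ENSRNOG00000043866 differed in the same direction in all 12 alternatives, by 13.1 to 17.2 percentage points with single animals left out. The difference in IDs detected, 141 at equal depth, was -185 at a minimum of 5 counts and ran from -24.0 (without animal 374) to 235 with single animals left out. The strain difference of the stage fold gave 0 calls in all 24 alternatives. No paired analysis was possible because the late and early animals carry different numbers. The alternatives for gene lists were not run. Leaving out animals 383 and 349 together, single Wistar animals or single vessel libraries, was chosen after seeing the data.

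Depth limits low IDs most, and 374 holds 1198386 counts. Stage cannot be told apart from the share of ENSRNOG00000043866 in 9 of 10 SHRSP libraries.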

Other observations

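In the SHRSP neuron libraries 10568 IDs had a count in all 10 and 15233 in none. A count in all 5 late libraries and none in the 5 early ones was found for 9 IDs, and the reverse for 1 ID. Without ENSRNOG00000043866 and thinned to 1117581 counts, late libraries held 13045 ± 248 IDs and early ones 12684 ± 399 (SD, n = 5 each; two-sided exact permutation test, p = 0.103).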
